A study of Mus musculus with 6 samples.

Results

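The genes described here are 35 genes of apicobasal and planar cell polarity, followed in the embryonic mouse pancreas between 13.5 and 15.5 days post coitum (dpc). They were chosen by name and function, with earlier results of these data known but by a rule that uses no measured value, and matched by symbol among the 37224 genes of the deposited table. They comprise 11 genes of the PAR complex with its kinases and GTPases, 4 of the Crumbs complex, 4 of the Scribble complex, 7 of planar cell polarity and 9 of the apical domain. The RNA came from whole pancreata of wild-type (wt) embryos of the C57/Bl6J strain. There were 3 samples at 13.5 dpc and 3 at 15.5 dpc, each a pool of pancreata from up to 3 embryos. The comparison addresses how expression differed between the ends of this 13.5 to 15.5 dpc interval, which falls in the secondary transition, when the exocrine and endocrine lineages differentiate. Epithelium, mesenchyme and other cells were not separated, so fewer cells of a type and less RNA per cell cannot be told apart.

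Epithelial cells divide their surface into an apical domain, which faces the lumen, and a basolateral domain, and these domains are kept apart by proteins that exclude each other. The PAR and Crumbs complexes act apically and at the tight junction, whereas the Scribble complex acts basolaterally and is held out of the apical domain by atypical protein kinase C. The planar cell polarity proteins orient cells within the plane of a sheet by sorting into opposite sides of each cell. In the developing pancreas, polarity is acquired as microlumens open in the epithelial bud and fuse into a ductal tree.

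Counts on genes totalled 12895732, 13656208 and 16389237 in the 13.5 dpc samples and 10797391, 12491550 and 10546028 in those of 15.5 dpc. All 35 genes passed the filter on low counts, which left 15578 genes. *Crb1* had the lowest count, 8 in a single sample, and no other gene of the list fell below 52. The samples of 15.5 dpc were less alike than those of 13.5 dpc. Their most distant pair, replicates 1 and 2, had a chi-square statistic of 59.8 per gene, against at most 4.59 between 13.5 dpc samples. Markers of the cell types in the organ were not constant either. The 12 epithelial markers summed to 31192 to 32817 normalised counts at 13.5 dpc and 40830 to 53554 at 15.5 dpc, and 6 of them rose while none fell. A separate list of 6 pancreas epithelium markers did not follow, with sums of 7645 to 8319 and then 8131 to 8634. Of these, *Ptf1a* was higher (log2 fold change 2.07), while *Sox9* (-0.67) and *Nkx6-1* (-0.39) were lower. The 10 acinar markers summed to 98175 to 118003 and then to 621340 to 1319020, with 9 higher. The 12 mesenchymal markers summed to 124882 to 141110 and then to 92297 to 137290, with 2 higher and 3 lower. None of these markers was at 0 in any sample, and the part of these shifts in the differences below was not tested.

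Between the stages, 2 of the 35 genes rose and 6 fell. *Vil1*, which encodes an actin-bundling protein of microvilli, and *Llgl2*, a basolateral substrate of atypical protein kinase C, were higher at 15.5 dpc. *Llgl1*, *Vangl2*, *Crb2*, *Pard6g*, *Prickle2* and *Podxl* were lower. The other 27 did not pass an adjusted p of 0.05 (edgeR's quasi-likelihood test over all 15578 genes tested, Benjamini-Hochberg adjustment). The share that passed, 22.9%, is close to the 22.3% of all genes tested. By direction, 11.6% of all genes rose and 10.7% fell, against 2 and 6 of 35. The median log2 fold change of the 35 genes was -0.03, and that of all genes -0.01. Scaling by library size alone, in place of the trimmed mean of M-values (TMM), moves them to -0.23 and -0.22. With a trend of each sample with gene length removed, the median of the 35 genes turns to 0.09, and that of all genes was not computed.

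The calls differed in how firmly they held. *Vil1*, *Llgl2* and *Vangl2* remained past the threshold in all 14 alternative analyses, and *Llgl1* in 13 of 14, with an adjusted p of 0.0506 without 15.5 dpc replicate 3. *Pard6g*, *Crb2*, *Prickle2* and *Podxl* passed in 10 of 14. Each of these 4 was lost without any 1 of the 13.5 dpc samples and without 15.5 dpc replicate 3, with adjusted p up to 0.103, 0.0778, 0.123 and 0.148, respectively, and little change in fold. Over all genes the share called also fell in these analyses, to 7.83%, 8.45% and 8.88% without 13.5 dpc replicates 1, 2 and 3 and to 9.05% without 15.5 dpc replicate 3. Without 15.5 dpc replicate 2, 9 of the 35 genes were higher and 12 lower, while 24.7% of all genes were higher and 23.3% lower, 48% in all. Without 15.5 dpc replicate 1, 4 of the 35 were higher and 8 lower, against 14.1% of all genes higher and 26.9% in either direction. By a rule of fold and level (a fold under 0.6 or over 1.6 and over 100 normalised counts in either stage, at an adjusted p no greater than 0.1), 5 genes differed, or 14.3% against 9.88% of all genes. They were *Vil1* and *Llgl2*, which were higher, and *Crb2*, *Vangl2* and *Prickle2*, which were lower. This number fell to 2 when 13.5 dpc replicate 3 was left out and to 3 when 15.5 dpc replicate 1 or 3 was, and it rose to 10 when 15.5 dpc replicate 2 was. Over all genes the rule was met by 7.77% without 13.5 dpc replicate 3 and by 7.1%, 16% and 8.25% without 15.5 dpc replicates 1, 2 and 3. For 19 genes the stages did not overlap (9 higher and 10 lower at 15.5 dpc), or 54.3% against 46.4% of all genes. The 8 called genes were among them, and the remaining 11 did not pass the adjusted p.

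**Figure D1:**
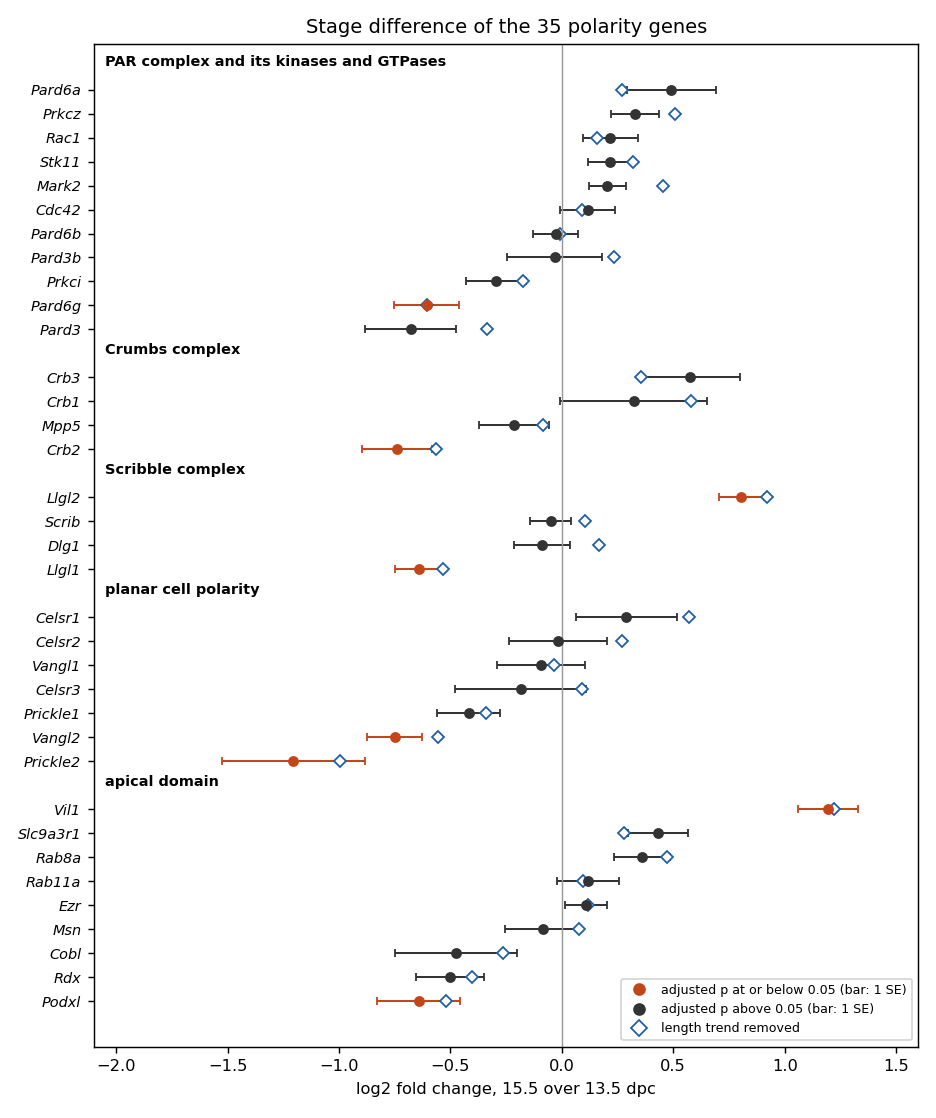
Log2 fold change of each of the 35 polarity genes at 15.5 over 13.5 dpc, by class, with bars of 1 standard error (3 samples per stage). Filled orange points passed an adjusted p of 0.05 and filled dark points did not, and open diamonds give the fold change after removal of a trend with gene length. *Vil1* and *Llgl2* lie farthest to the right, *Prickle2* farthest to the left, and 27 points did not pass.

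The sequence before the transcription start is shown for the 5 called genes with a window taken from the RefSeq promoter table of GRCm38.p6. That build is the mm10 assembly, and genes moving in opposite directions can be read side by side. Each run is the 250 bases upstream of the most upstream start listed, 5′ to 3′ on the strand of the gene. Capitals mark any match on either strand to the GC box written as GGGCGG, the box named by its letters CCAAT, the TATA box written as TATAAA, the core of a TEAD site (GGAATG), the core of an RBPJ site (TGGGAA) or the E-box (CACGTG). For *Vangl2* and *Vil1* the RefSeq start lies within the Ensembl gene model. The windows are chr1:74409134-74409383 (+) for *Vil1*, chr11:60699450-60699699 (+) for *Llgl1*, chr1:172027296-172027545 (-) for *Vangl2*, chr6:92706185-92706434 (-) for *Prickle2* and chr2:37775999-37776248 (+) for *Crb2*.
Vil1: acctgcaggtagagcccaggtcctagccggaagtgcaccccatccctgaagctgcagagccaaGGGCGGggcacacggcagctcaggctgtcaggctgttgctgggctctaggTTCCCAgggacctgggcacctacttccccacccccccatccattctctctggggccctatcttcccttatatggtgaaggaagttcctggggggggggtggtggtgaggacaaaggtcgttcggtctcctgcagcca
Llgl1: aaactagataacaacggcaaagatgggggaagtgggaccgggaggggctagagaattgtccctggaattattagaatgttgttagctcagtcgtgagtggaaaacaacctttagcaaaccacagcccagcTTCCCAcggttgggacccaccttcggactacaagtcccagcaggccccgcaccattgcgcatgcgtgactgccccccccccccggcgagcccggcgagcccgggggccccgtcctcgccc
Vangl2: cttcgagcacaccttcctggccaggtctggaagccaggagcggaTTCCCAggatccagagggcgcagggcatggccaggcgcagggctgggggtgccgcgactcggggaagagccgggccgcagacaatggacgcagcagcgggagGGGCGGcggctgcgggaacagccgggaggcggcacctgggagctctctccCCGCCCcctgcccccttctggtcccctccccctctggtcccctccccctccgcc
Prickle2: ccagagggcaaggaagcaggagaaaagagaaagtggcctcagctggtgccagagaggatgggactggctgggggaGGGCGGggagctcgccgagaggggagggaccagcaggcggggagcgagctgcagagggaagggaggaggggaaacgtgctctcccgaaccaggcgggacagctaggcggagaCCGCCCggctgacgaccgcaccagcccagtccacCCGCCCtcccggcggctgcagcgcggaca
Crb2: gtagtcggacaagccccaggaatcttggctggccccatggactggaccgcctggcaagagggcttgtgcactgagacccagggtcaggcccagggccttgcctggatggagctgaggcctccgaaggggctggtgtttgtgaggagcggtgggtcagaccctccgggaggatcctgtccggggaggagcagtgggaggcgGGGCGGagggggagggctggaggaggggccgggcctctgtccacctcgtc

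The window of *Vil1*, the gene that rose, held 1 GC box at -187 and the RBPJ core at -137 on the minus strand, counted from the base before the start as -1. *Prickle2* held 3 GC boxes and *Vangl2* 2, *Crb2* held 1 at -50, and *Llgl1* held none. The RBPJ core was also present in *Vangl2* at -206 and in *Llgl1* at -120. No CCAAT box, TATA box, TEAD core or E-box was found in any of the 5 windows. The GC content ran from 60.8% in *Llgl1* to 73.6% in *Vangl2*, against a median of 52.4% over all 32851 windows of the table, where a gene may have several. A window was taken for 27 of the 35 genes, and none on chromosome 18, where *Pard6g* lies. A GC box was in 20 of these 27 windows and in 32.7% of all windows, and a CCAAT box in 8 and in 33.8%. The RBPJ core was in 8 and in 21.6% of all windows, the E-box in 5 and 6.02%, the TEAD core in 3 and 12.6%, and the TATA box in 1 and 12.4%. These are letter matches only, and the table covers genes of all kinds. *Celsr1*, *Llgl2*, *Mpp5*, *Pard6g*, *Podxl*, *Rac1*, *Scrib* and *Vangl1* have no window here.

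Of the 11 PAR genes, none rose and 1 fell, *Pard6g*. The Pard6 proteins are adaptors that hold atypical protein kinase C and bind active Cdc42. *Pard6g* had 534, 526 and 561 normalised counts in replicates 1, 2 and 3 of 13.5 dpc and 291, 426 and 345 at 15.5 dpc. All samples of 15.5 dpc lay below all of 13.5 dpc, and replicate 2 came nearest to them. On the log2 scale it fell by 0.61 (standard error 0.146, adjusted p = 0.0251). The gene lies at chr18:80046895-80119640 on the plus strand of mm10.

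Its paralogues did not pass the test. *Pard6b* had 591, 605 and 582 normalised counts at 13.5 dpc and 522, 628 and 593 at 15.5 dpc, so that the stages overlapped (log2 fold change -0.03, adjusted p = 0.857). *Pard6a*, the least abundant of the family, had 85.7, 67.7 and 95.5 and then 144, 100 and 108 normalised counts. Here the stages did not overlap, but the difference of 0.49 on the log2 scale had a standard error of 0.199 (adjusted p = 0.112).

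The catalytic subunits, the atypical protein kinases C, leaned in opposite directions without passing the test. *Prkci* had 1290, 1246 and 1302 normalised counts at 13.5 dpc and 870, 1236 and 1015 at 15.5 dpc (log2 fold change -0.30, adjusted p = 0.145). *Prkcz* had 211, 211 and 239 and then 268, 273 and 290 normalised counts (log2 fold change 0.33, adjusted p = 0.0663). *Prkcz* shares 14.8% of its 50-base windows with *Prkcz2*, and its count is therefore uncertain. The stages did not overlap for either gene, although replicate 2 of 15.5 dpc lay just under the 13.5 dpc samples in *Prkci*.

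*Pard3*, the junctional scaffold of the complex, had the largest fold change of the class that did not pass. It had 1939, 1831 and 2082 normalised counts at 13.5 dpc and 840, 1539 and 1276 at 15.5 dpc (log2 fold change -0.68, standard error 0.204, adjusted p = 0.0521). The stages did not overlap, and replicate 1 of 15.5 dpc was the lowest. *Pard3* passed in 8 of 14 alternative analyses, with DESeq2 (adjusted p = 0.0159) among them. Its relative *Pard3b* had a log2 fold change of -0.03 (adjusted p = 0.924) and turned to 0.23 once the trend with gene length was removed.

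The GTPases and kinases that regulate the complex had small fold changes, none of which passed. *Rac1* and *Cdc42*, GTPases that organise actin, had log2 fold changes of 0.22 and 0.12 (adjusted p = 0.222 and 0.51). *Stk11*, the kinase that activates the Mark kinases, had 0.22 (adjusted p = 0.142). *Mark2*, which phosphorylates Pard3 and keeps it out of the lateral membrane, had 0.20 (adjusted p = 0.11). With library size only, *Rac1*, *Stk11* and *Mark2* were each at -0.01 or nearer to 0, and *Cdc42* was at -0.11, where the median of all genes was -0.22. *Cdc42* shares 2.19% of its windows with other genes.

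In the Crumbs complex, 1 of 4 genes fell and none rose. The Crumbs proteins are transmembrane proteins of the apical membrane, and the adaptor Mpp5 ties them to the junction. *Crb2* (chr2:37776249-37799103, plus strand) had 371, 375 and 391 normalised counts at 13.5 dpc and 181, 277 and 219 at 15.5 dpc. The 13.5 dpc samples were nearly equal, and each sample of 15.5 dpc lay below them, and on the log2 scale the change was -0.74 (standard error 0.157, adjusted p = 0.0165).

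*Crb3*, the form with a short extracellular part that is typical of epithelia, had 486, 502 and 486 normalised counts and then 1021, 537 and 645. All samples of 15.5 dpc lay above those of 13.5 dpc, with replicate 1 far above the other two. The log2 fold change of 0.58 had a standard error of 0.223 and did not pass (adjusted p = 0.101). *Crb1* was close to the limit of detection, at 15.5, 12.9 and 10.1 and then 11.1, 21.5 and 13.9 normalised counts (log2 fold change 0.32, adjusted p = 0.489). *Mpp5* had a log2 fold change of -0.21 (adjusted p = 0.335), with 451 to 670 normalised counts at 15.5 dpc around 612 to 631 at 13.5 dpc.

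The Scribble complex held the only paralogues of the list of which 1 rose and the other fell. *Llgl2* (chr11:115824049-115855780, plus strand) had 1278, 1347 and 1414 normalised counts at 13.5 dpc and 2556, 2141 and 2365 at 15.5 dpc. Its log2 fold change was 0.81 (standard error 0.10, adjusted p = 0.00228). *Llgl1* (chr11:60699723-60714186, plus strand) had 1916, 1899 and 1939 normalised counts and then 1099, 1407 and 1184. Its log2 fold change was -0.64 (standard error 0.110, adjusted p = 0.00772). Both genes encode homologues of the fly tumour suppressor Lethal giant larvae, and neither had overlapping stages. Their partners *Scrib* and *Dlg1*, the scaffolds of the complex, had log2 fold changes of -0.05 and -0.09 (adjusted p = 0.698 and 0.622), which became 0.10 and 0.17 with the length trend removed.

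Among the 7 genes of planar cell polarity, 2 fell and none rose. *Vangl2*, a membrane protein of the core pathway, had 888, 831 and 955 normalised counts at 13.5 dpc and 459, 605 and 523 at 15.5 dpc. The gap between the stages was larger than the range within either. On the log2 scale the change was -0.75 (standard error 0.125, adjusted p = 0.00666). *Vangl2* lies at chr1:172000960-172028444 on the minus strand. Its paralogue *Vangl1* had 271, 277 and 334 and then 195, 319 and 310 normalised counts, which overlapped (log2 fold change -0.09, adjusted p = 0.744).

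*Prickle2* (chr6:92370892-92706145, minus strand) encodes a cytoplasmic partner of the Vangl proteins. It had 503, 443 and 553 normalised counts at 13.5 dpc and 109, 312 and 223 at 15.5 dpc. Replicates 1 and 2 of 15.5 dpc differed from each other more than replicate 2 did from the lowest 13.5 dpc sample. The log2 fold change of -1.21 was the lowest of the list, with a standard error of 0.319 (adjusted p = 0.0348). *Prickle1* had 472, 464 and 507 and then 300, 425 and 351 normalised counts. Its stages did not overlap, but the log2 fold change of -0.42 did not pass (adjusted p = 0.0688).

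The Celsr genes encode large atypical cadherins that link neighbouring cells, and all of them had overlapping stages. *Celsr1* had 870, 759 and 1008 normalised counts at 13.5 dpc and 815, 1474 and 931 at 15.5 dpc (log2 fold change 0.29, adjusted p = 0.37). *Celsr2* had 648, 636 and 764 and then 515, 929 and 577 normalised counts (log2 fold change -0.02, adjusted p = 0.963). *Celsr3* had 114, 129 and 170 and then 72.0, 167 and 121 normalised counts (log2 fold change -0.19, adjusted p = 0.664). Replicate 2 was the highest and replicate 1 the lowest of the 15.5 dpc samples for each.

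In the apical domain, 1 of 9 genes rose and 1 fell. *Vil1* (chr1:74409376-74435559, plus strand) had 128, 152 and 159 normalised counts at 13.5 dpc and 356, 297 and 356 at 15.5 dpc. Every sample of 15.5 dpc had more than any of 13.5 dpc, and the stages were well apart. Its log2 fold change of 1.20 was the highest of the list (standard error 0.135, adjusted p = 0.00161). *Vil1* is also strongly expressed by intestinal epithelium. The 7 intestinal markers together had 66.9 to 92.7 normalised counts at 13.5 dpc and 71.6 to 109 at 15.5 dpc, with *Fabp2* at no more than 3 counts in any sample. Of these markers, *Lgals4* and *Tff3* passed the filter and neither passed the test. *Lgals4* had 29.2, 32.6 and 37.4 and then 58.1, 40.9 and 52.9 normalised counts (log2 fold change 0.60, adjusted p = 0.0727), without overlap of the stages. The part of intestinal cells in the change of *Vil1* was not tested.

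*Podxl* (chr6:31519488-31563981, minus strand) encodes podocalyxin, a sialomucin that marks the membrane of opening lumens. It had 2985, 3075 and 3203 normalised counts at 13.5 dpc and 1453, 2529 and 1944 at 15.5 dpc. The stages did not overlap, and replicate 2 of 15.5 dpc lay nearest to the earlier samples. The log2 fold change was -0.64 (standard error 0.187, adjusted p = 0.0467). Podocalyxin is also known from endothelium and mesothelium. The 8 endothelial markers summed to 5734 to 6186 and then 5760 to 6782 normalised counts, with 1 higher and none lower. The 6 mesothelial markers summed to 4218 to 4293 and then 3761 to 4186, with 1 higher (*Msln*) and 1 lower (*Wt1*). *Krt7* alone held 2050 to 2150 and then 1863 to 2563 of these counts, so the sum says little about the other markers. The median log2 fold change of the 6 was -0.15. No endothelial or mesothelial marker was at 0 in all samples, and their part in the change of *Podxl* was not tested.

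The proteins that tie the apical membrane to actin did not pass the test. *Ezr*, the ezrin gene, had 2405, 2384 and 2473 normalised counts at 13.5 dpc and 2368, 2838 and 2619 at 15.5 dpc (log2 fold change 0.11, adjusted p = 0.427). *Msn*, the moesin gene, had 1629, 1664 and 1819 and then 1214, 1973 and 1628 normalised counts (log2 fold change -0.09, adjusted p = 0.731). Both had overlapping stages. *Rdx*, the radixin gene, had 3105, 2967 and 2997 and then 1675, 2578 and 2151 normalised counts. Its stages did not overlap and its log2 fold change was -0.50 (standard error 0.154, adjusted p = 0.0546), and it passed in 7 of 14 alternative analyses. *Slc9a3r1*, a scaffold that binds ezrin at the apical membrane, had a log2 fold change of 0.43 (adjusted p = 0.0576), with 1839 to 1873 normalised counts at 13.5 dpc and 2118 to 3003 at 15.5 dpc.

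The genes of apical transport and actin nucleation completed the class. *Rab8a*, a GTPase of apical delivery, had a log2 fold change of 0.36 without overlap of the stages (adjusted p = 0.0812). *Rab11a*, which marks recycling endosomes, had 0.12 (adjusted p = 0.551) and -0.11 with library size only, where the median of all genes was -0.22. *Cobl*, an actin nucleator, had -0.47 with a standard error of 0.274 (adjusted p = 0.237), and its 15.5 dpc samples ranged from 72.0 to 155 normalised counts. *Rab11a* and *Rab8a* share 1.85% and 1.03% of their windows with other genes.

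**Figure D2:**
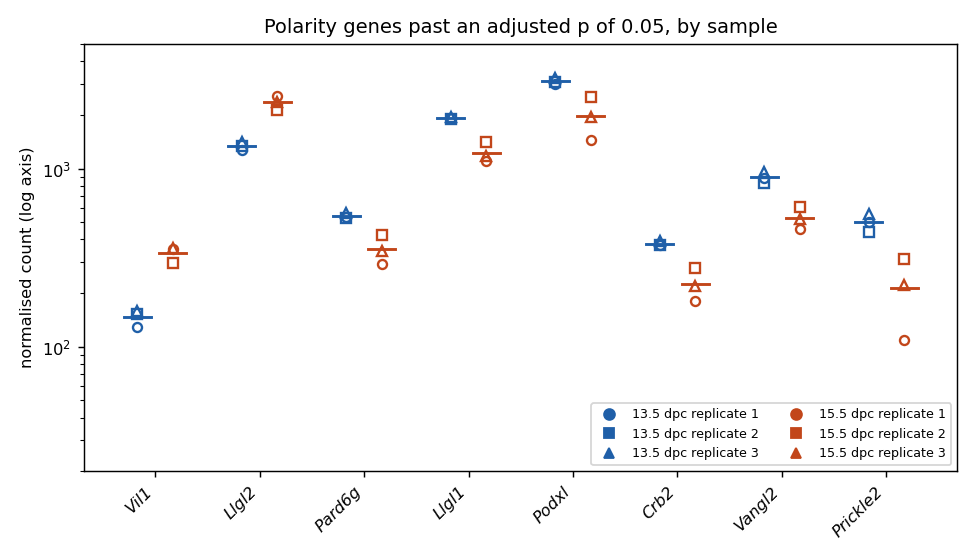
Normalised counts (log axis) of the 8 polarity genes past an adjusted p of 0.05, with a symbol for each replicate and a line for the mean of 3 samples. Samples of 13.5 dpc are blue and those of 15.5 dpc orange. No gene has overlapping stages, and in all 6 genes that fell the lowest value is that of 15.5 dpc replicate 1 and the nearest to 13.5 dpc that of replicate 2.

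The class medians of the log2 fold change were 0.12 for the PAR class, 0.05 for Crumbs, -0.07 for Scribble, -0.19 for planar cell polarity and 0.11 for the apical domain. With library size only, the PAR, Crumbs and apical medians turned to -0.11, -0.15 and -0.11, and that of planar cell polarity was -0.38. The median of all genes was then -0.22. With the length trend removed, the Scribble median turned to 0.14 and that of planar cell polarity was -0.03. Without 15.5 dpc replicate 1 the median of planar cell polarity was 0.07, and without replicate 2 it was -0.49, whereas that of Crumbs was -0.20.

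Per 1000 exon bases, the levels spanned the range from *Cdc42* to *Crb1*. *Cdc42* had 1870 normalised counts per kilobase at 13.5 dpc and 2027 at 15.5 dpc, followed at 13.5 dpc by *Rac1* (1544), *Slc9a3r1* (967) and *Ezr* (736). *Crb1* was at 1.17 and 1.42 per kilobase, well under *Celsr3* (11.9 and 10.4), *Cobl* (18.6 and 13.3) and *Pard3b* (23.1 and 22.5). Within the Crumbs family, *Crb3* led per kilobase with 314 at 13.5 dpc and 469 at 15.5 dpc, above *Crb2* with 56.6 and 33.7. Among the Pard6 genes, *Pard6b* and *Pard6g* were alike at 13.5 dpc, with 174 and 172 per kilobase, and apart at 15.5 dpc, with 171 and 113. *Prkci* exceeded *Prkcz* at both stages, with 240 against 34.9 and 195 against 43.9 per kilobase. These levels use the exon length of each whole gene model, so a gene whose isoforms are shorter is set too low.

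Ratios between related genes of a sample do not depend on how libraries are scaled, but where the genes differ in length they carry the trend with length described below. Of 16 such ratios of counts per exon base, 12 had stages that did not overlap. This count is a description only, since the ratios within a family share genes, no other gene pairs were run beside them, and 46.4% of single genes did not overlap either. With 3 samples against 3, the exact permutation test (two-sided) cannot go below p = 0.1, which each of the 12 reached (adjusted p = 0.133 over the 16 ratios). The widest shift was that of *Llgl2* over *Llgl1*. It was 0.67, 0.712 and 0.732 in the 13.5 dpc samples and 2.33, 1.53 and 2.01 in those of 15.5 dpc, so that *Llgl1* was the more abundant in each 13.5 dpc sample and *Llgl2* in each of 15.5 dpc. The mean difference was 1.45 on the log2 scale, and the SD was 0.07 among 13.5 dpc samples and 0.31 among those of 15.5 dpc (n = 3, exact permutation p = 0.1). The exon lengths of these genes are 4844 and 4862 bases.

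The ratio of *Crb3* over *Crb2* was 5.61, 5.73 and 5.32 and then 24.1, 8.30 and 12.6. *Prickle1* over *Prickle2* was 1.87, 2.08 and 1.82 and then 5.46, 2.71 and 3.13. In both the early samples were alike and the late ones spread, with replicate 1 the farthest. These genes differ in exon length, with 1564 bases for *Crb3* and 6698 for *Crb2*, and 4345 for *Prickle1* and 8637 for *Prickle2*. With the length trend removed, the log2 fold changes drew nearer to each other, from 0.58 and -0.74 to 0.35 and -0.56 for *Crb3* and *Crb2*, and from -0.42 and -1.21 to -0.34 and -0.99 for the Prickle genes. *Vangl1* over *Vangl2* was 0.527, 0.577 and 0.605 and then 0.735, 0.912 and 1.03. *Ezr* over *Rdx* was 1.14, 1.18 and 1.21 and then 2.08, 1.62 and 1.79, and *Msn* over *Rdx* was 0.401, 0.429 and 0.464 and then 0.555, 0.585 and 0.579. The share of *Rdx* among the ezrin, radixin and moesin genes was thus lower in each 15.5 dpc sample. *Prkcz* over *Prkci* was 0.138, 0.143 and 0.155 and then 0.26, 0.186 and 0.241. *Pard6b* over *Pard6g* was 1.02, 1.06 and 0.959 and then 1.66, 1.36 and 1.59. *Pard6a* over *Pard6g* was 0.353, 0.283 and 0.374 and then 1.09, 0.517 and 0.69. *Pard6g* thus made up less of its family at 15.5 dpc in every sample.

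*Celsr1* over *Celsr2* had nearly the same value in all 15.5 dpc samples, 1.65, 1.65 and 1.68, although the counts of both genes varied widely there. It was 1.4, 1.24 and 1.37 at 13.5 dpc. *Celsr1* over *Celsr3* was 7.98, 6.16 and 6.21 and then 11.8, 9.23 and 8.04, and *Crb2* over *Crb1* was 39.1, 47.5 and 63.5 and then 26.7, 21.1 and 25.8. The ratios that overlapped were those of *Crb3* over *Crb1*, *Celsr2* over *Celsr3*, *Pard6a* over *Pard6b* and *Ezr* over *Msn*, with exact permutation p of 0.8, 0.5, 0.2 and 0.2.

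**Figure D3:**
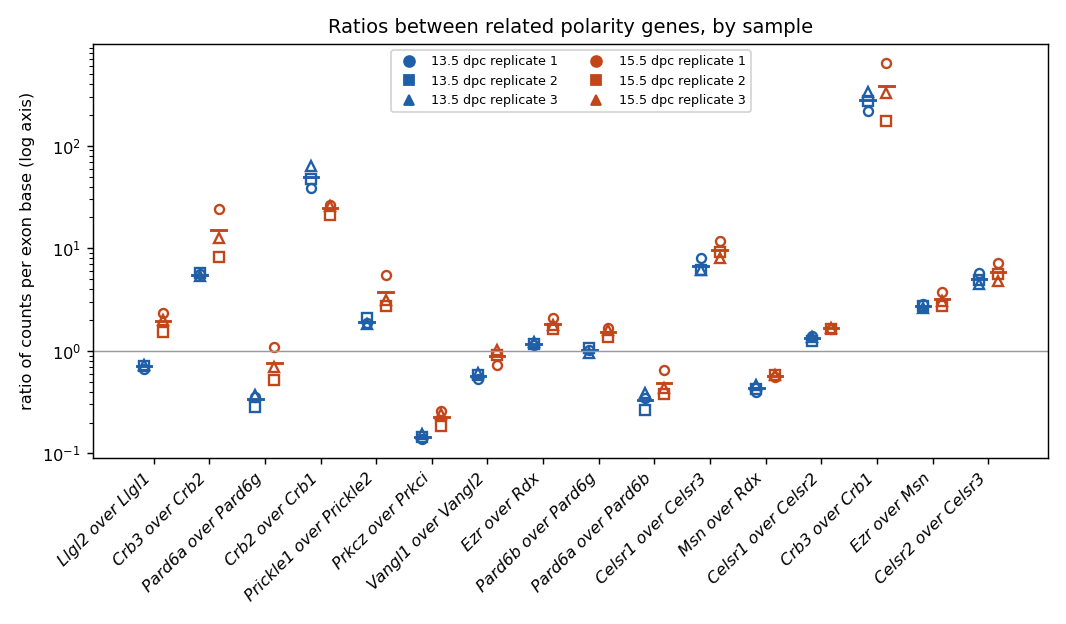
Ratio of counts per exon base (log axis) between related polarity genes, in each of 3 samples per stage (blue, 13.5 dpc, orange, 15.5 dpc), with a line for the mean, ordered by the size of the log2 difference. *Llgl2* over *Llgl1* is the pair of the widest shift, with all 13.5 dpc samples under 1 and all 15.5 dpc samples above it. Several ratios share a gene.

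Several of these genes are long, and length ran with the differences between samples. The median exon length of the list was 5333 bases, against 3470 over all genes tested. The log2 ratio of 15.5 dpc replicate 1 over replicate 2, samples of the same stage, fell with exon length over the 35 genes (Spearman's rho = -0.78, across genes, which share the same libraries and are not independent replicates). All 18 genes of at least 5000 exon bases were lower in replicate 1 than in replicate 2, as were 7 of the 17 shorter ones. Over all genes, the deviation of a sample from the mean also ran with length, with rho of -0.52 in replicate 1, 0.34 in replicate 2 and -0.32 in replicate 3 of 15.5 dpc and 0.24 to 0.43 in the 13.5 dpc samples. Whether length itself or something that goes with it accounts for this was not tested.

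Once a smooth trend with length was removed from each sample, 16 of the 35 genes passed the test, 7 higher and 9 lower, or 45.7% against 32.8% of all genes. The 8 genes called before were among them, in the same directions. The trend was taken against the mean of both stages, so any stage difference that goes with length was removed as well. The 5 further genes that rose were *Celsr1* (log2 fold change 0.57, adjusted p = 0.00445), *Prkcz* (0.51, 0.0112), *Rab8a* (0.47, 0.0417), *Mark2* (0.45, 0.0175) and *Slc9a3r1* (0.28, 0.0189). Those that fell were *Rdx* (-0.40, 0.0211), *Prickle1* (-0.34, 0.0374) and *Pard3* (-0.34, 0.016). The log2 fold change of *Celsr1*, with 11050 exon bases, moved from 0.29 to 0.57, and that of *Mark2*, with 7942, from 0.20 to 0.45. *Pard6g*, with 3143 exon bases, stayed at -0.61.

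**Figure D4:**
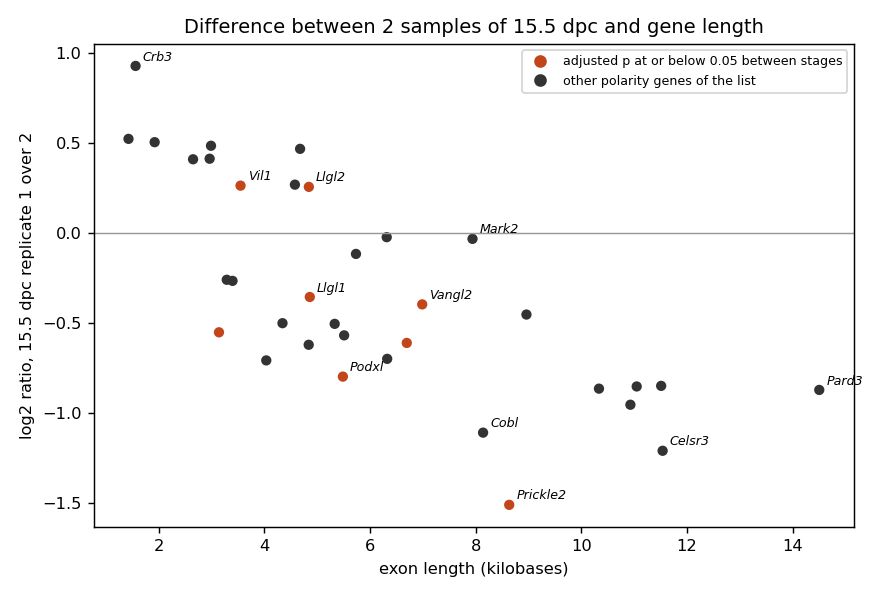
Log2 ratio of normalised counts of 15.5 dpc replicate 1 over replicate 2 against exon length in kilobases, with a point for each of the 35 genes (orange, past an adjusted p of 0.05 between the stages). The points fall with length (Spearman's rho = -0.78), and no gene of at least 5000 bases lies above 0.

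Another 65 genes of the same pathways, listed by function, gave a background of like kind. Of these, 62 passed the filter, and *Lin7b*, *Prickle4* and *Pdzk1* did not. At an adjusted p of 0.05, 10 rose and 8 fell, or 29.0% of those tested, against 22.3% of all genes. After removal of the length trend 30 of 62 passed, or 48.4% against 32.8% of all genes. Without 15.5 dpc replicate 1 there were 26, or 41.9% against 26.9%, and without replicate 2 there were 33, or 53.2% against 48%. Without 15.5 dpc replicate 3 or any of the 13.5 dpc samples there were 7, or 11.3% against 7.83% to 9.05%. Of the further genes of the apical domain, 6 were higher and 2 lower of 20, and of those of planar cell polarity 2 were higher and 5 lower of 16. The further genes of the PAR, Crumbs and Scribble classes had 1 of 12, 1 of 7 and 1 of 7 past the test, *Cab39l* (higher), *Epb41l4b* (higher) and *Dlg4* (lower). These passed in 8, 14 and 10 of 14 alternative analyses, and *Cab39l* did not with library size only (adjusted p = 0.146, edgeR).

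Among the further genes of the apical domain, *Cdhr5*, a protocadherin that links microvilli, had 20.05, 20.58 and 22.99 normalised counts at 13.5 dpc and 91.3, 65.4 and 84.4 at 15.5 dpc (log2 fold change 1.90, adjusted p = 0.00121). *Muc1*, an apical mucin, had 917, 1085 and 1121 and then 3409, 2513 and 3080 normalised counts (log2 fold change 1.53, adjusted p = 0.000911). *Espn*, an actin bundler like *Vil1*, had 493, 532 and 550 and then 1294, 840 and 985 normalised counts (log2 fold change 0.98, adjusted p = 0.00656). Replicate 1 of 15.5 dpc was the highest for each of these 3 genes. *Cdhr2*, the partner of *Cdhr5* in the brush border, fell instead, from 87.5 to 92.0 normalised counts to 63.0 to 64.4 (log2 fold change -0.48, adjusted p = 0.0366). It passed in 7 of 14 alternative analyses, not with DESeq2 (adjusted p = 0.083), and had an adjusted p of up to 0.144 when a sample was left out. *Cdhr2* lies outside the rule for named genes and was named after its value was seen.

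The trafficking genes *Rab25*, a relative of *Rab11a*, and *Sytl4*, an effector of secretory Rab proteins, rose. *Rab25* had 528, 519 and 490 normalised counts at 13.5 dpc and 1237, 815 and 1014 at 15.5 dpc (log2 fold change 0.99, adjusted p = 0.00516). *Sytl4* had 184, 214 and 213 and then 386, 398 and 409 normalised counts (log2 fold change 0.96, adjusted p = 0.00153). *Rab11fip2*, an effector of Rab11, fell from 346, 361 and 349 to 180, 251 and 235 normalised counts (log2 fold change -0.66, adjusted p = 0.0157). The 15.5 dpc samples were alike for *Sytl4* and spread for *Rab25*. *Epb41l4b*, a FERM-domain protein related to regulators of Crumbs, rose from 341, 331 and 347 to 987, 772 and 883 normalised counts (log2 fold change 1.37, adjusted p = 0.000706).

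Among further genes of planar cell polarity, *Ankrd6*, a cytoplasmic partner of Dishevelled, had 189, 173 and 200 normalised counts and then 56.7, 90.0 and 76.8. Its log2 fold change was -1.32 (adjusted p = 0.0033). *Dchs1*, a cadherin of the Fat and Dachsous system, had 1289, 1113 and 1394 and then 385, 830 and 586 normalised counts (log2 fold change -1.07, adjusted p = 0.0241). For both, replicate 1 of 15.5 dpc was the lowest sample and replicate 2 the nearest to 13.5 dpc. *Wdpcp*, an effector linked to ciliogenesis, rose from 131, 139 and 134 to 248, 175 and 198 normalised counts (log2 fold change 0.61, adjusted p = 0.0284). *Dchs1*, *Rab11fip2* and *Wdpcp* lost their call without 15.5 dpc replicate 3 or without any 1 of the 13.5 dpc samples, with adjusted p up to 0.0971, 0.0733 and 0.113. *Wdpcp* also lost it with library size only (0.0574) and passed in 8 of 14 alternative analyses.

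**Figure D5:**
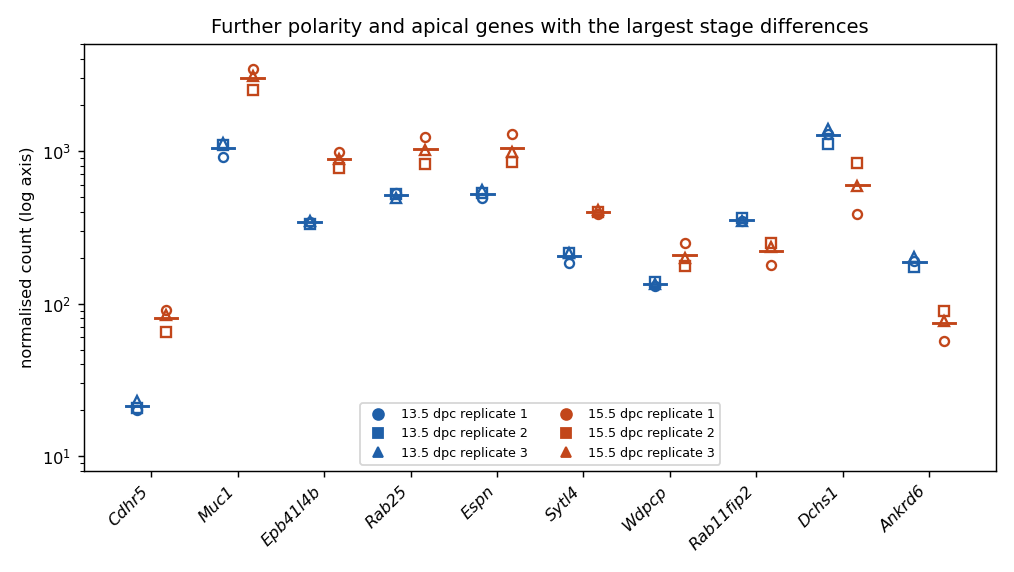
Normalised counts (log axis) of the 10 further polarity and apical genes with the largest fold changes among those past an adjusted p of 0.05 whose stages did not overlap, with a symbol for each replicate (blue, 13.5 dpc, orange, 15.5 dpc) and a line for the mean of 3 samples. *Cdhr5*, *Muc1* and *Epb41l4b* rose most and *Ankrd6* fell most.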

How the data were processed

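The authors aligned single-end reads of strand-specific poly(A) libraries to mm10 with GSNAP, and only reads with a unique alignment were assigned to Ensembl genes. The deposited values are raw counts per gene from featureCounts 1.4.6, without normalisation, with the exon length of each gene (in bases) written beside them per the file headers. The submitters' processing notes also name bcl2fastq 1.8.4. Symbols and coordinates came from an mm10 annotation by Ensembl identifier, and 35449 of 37224 identifiers had a symbol.

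The software was edgeR 4.0.16, DESeq2 1.42.0 and limma 3.58.1 under R 4.3.3, and matplotlib 3.10.9 under Python 3.11.15 for the figures. Genes were filtered with filterByExpr and scaled by TMM factors (0.847 to 1.08). The stages were compared over the 6 samples by the quasi-likelihood test without covariates, adjusted over all genes tested. A standard error is the absolute log2 fold change divided by the square root of F. Counts were normalised to a common effective library size, the geometric mean over samples. The rule of fold and level follows the study's methods, applied here to genes of every biotype. The length trend was a lowess curve (span 0.5) per sample, fitted to the deviation from the mean over both stages. The stage fits (edgeR, also with the length trend or the block, and DESeq2) were tested on simulated counts. Those counts had no trend with length and no replicate unlike the others, so the test does not cover these features of the data. Ratios between related genes used exact permutation tests, for the pairs within the Crb, Celsr, Vangl, Prickle, Llgl and Pard6 genes, the atypical protein kinases C and the ezrin, radixin and moesin genes. *Pard3* and *Pard3b* were not among the pairs.

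Alternatives were DESeq2, other scalings and filters, a block on the replicate number, the length trend, a threshold of 0.1 and each sample left out. The list, the 65 further genes and the 13 marker lists were chosen with earlier results of these data known. Named among the further genes are the 10 with the largest log2 fold change past the adjusted p whose stages did not overlap. Promoter windows are from RefSeq. Of the markers, *Muc16* and *Ahsp* were not matched. Other stages and genotypes of the study were not analysed here.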

Additional observations from a re-analysis of the deposited data

How the results depend on the processing

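The depth of 10546028 to 16389237 counts per sample limits *Crb1*, with counts as low as 8, more than any other gene of the list. Over 489 results of the 35 genes under the alternatives, 411 kept their direction and their side of the threshold, 17 lost the threshold, 36 gained it and 25 changed sign. No called gene changed sign, and all 17 losses were from leaving out a sample. Where no value below shows it, the cause of a change was not tested.

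With the length trend removed, 7 genes were higher and 30 of the further genes passed, where 32.8% of all genes passed in either direction. In that analysis 3 genes met the rule of fold and level, as also with size factors of DESeq2's kind (RLE, 3 genes). With library size only, 8 met it. The share of all genes that met the rule in these analyses was not computed, so these numbers have no background. At an adjusted p of 0.1, 5 genes were higher, and 5303 of all genes passed in place of 3467. Leaving out a sample gave 2 to 9 genes higher, 1 to 12 lower, 2 to 10 by the rule of fold and level, 7 to 33 of the further genes and 1235 to 7620 of all genes.

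With library size only, the class medians were -0.11 (PAR), -0.15 (Crumbs), -0.28 (Scribble), -0.38 (planar cell polarity) and -0.11 (apical domain). That of all genes was -0.22. The Crumbs median was -0.23 with at least 10 counts in every sample, which removes *Crb1*, and -0.20 to 0.13 without a sample. The Scribble median was 0.14 with the length trend removed, and that of planar cell polarity was -0.49 to 0.07 without a sample.

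Genes that changed sign had not passed the test. With library size only, *Cdc42* was at -0.11, *Rac1* at -0.0063, *Stk11* at -0.0037, *Mark2* at -0.0078, *Rab11a* at -0.11 and *Ezr* at -0.098. The median of all genes was then -0.22, and each of these genes lay above it. With the length trend removed, *Pard3b* was at 0.23, *Scrib* at 0.10, *Dlg1* at 0.17, *Celsr2* at 0.27, *Celsr3* at 0.091 and *Msn* at 0.075. Without a sample, the range was -0.28 to 0.15 for *Pard3b*, -0.074 to 0.045 for *Pard6b*, -0.0057 to 0.22 for *Cdc42*, -0.20 to 0.016 for *Dlg1*, -0.20 to 0.096 for *Vangl1*, -0.31 to 0.15 for *Celsr2*, -0.49 to 0.069 for *Celsr3* and -0.25 to 0.081 for *Msn*.

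Samples share a replicate number, and the labels do not say whether it pairs them. Deviations from the stage means correlated at 0.21, -0.21 and 0.03 within the numbers. This cannot decide whether they were paired, since samples of a stage also differed along gene length. With the replicate block, 2676 of all genes passed, and 2 genes of the list were higher and 7 lower, the 8 called genes and *Pard3* (adjusted p = 0.0439, edgeR). Of the further genes 13 passed with the block, and of the called ones named above *Cab39l* (adjusted p = 0.0658), *Wdpcp* (0.055) and *Cdhr2* (0.1) did not.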

Other observations

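Of the further polarity genes, *Dvl3*, *Dnmbp* and *Fat4* varied widely among the 15.5 dpc samples. They were named after their values were seen, and none passed the adjusted p of edgeR's test. *Dvl3*, a Dishevelled gene, had 275, 918 and 521 normalised counts in replicates 1, 2 and 3. *Dnmbp*, an exchange factor for Cdc42, had 205, 676 and 495. *Fat4*, the cadherin bound by *Dchs1*, had 357, 1004 and 549. Replicate 1 was the lowest and replicate 2 the highest for each, the order also seen in the Celsr genes. At 13.5 dpc the same genes had 617 to 934, 598 to 718 and 1035 to 1266 normalised counts.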
